A study of Bos taurus with 12 samples.

Results

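Solute carriers are membrane proteins that move sugars, acids, vitamins, ions and other small molecules across the cell surface or organelle membranes. The genes described here are the solute carriers of bovine endometrium whose symbol starts with SLC or SLCO. Most amino acid families, the zinc and mitochondrial families, SLC27A6 and SLCO2A1 were left out. Amino and imino acid carriers of other families, such as SLC6A14 and SLC6A20, were kept. The rule found 108 such genes on the array, and 53 of them, among 6781 named genes in all, had a probe set with a log2 value above 4 on at least 3 of the 12 arrays. Each gene is represented by its kept probe set with the highest mean. By substrate, 11 carry sugars, sugar phosphates or nucleotide sugars, 3 are monocarboxylate carriers, 7 carry vitamins or choline or belong to those families, 10 carry ions, 8 belong to organic anion, organic cation and bile acid families, and 13 carry other substrates. The last, SLC4A1AP, carries an SLC symbol but encodes an adaptor protein and not a carrier.

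Endometrial biopsies came from Simmental heifers at day 7 or day 14 of the oestrous cycle, a cycle before an embryo biopsy was transferred to them on day 7. Heifers that delivered a calf gave the groups CDd7 and CDd14, and heifers that did not become pregnant and came back into heat gave NPd7 and NPd14. All biopsies therefore preceded the transfer, and all 4 groups share the breed and the sampling scheme. Each group has 3 arrays, each with the RNA of a pool of biopsies. The number of heifers in a pool, their ages, and whether the same heifers entered the pools of both days were not stated in the labels, so that p-values measure the spread between these pools.

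In the luminal and glandular epithelium of the uterus, carriers on the basal and apical membranes pass nutrients from blood to the uterine lumen, where they become part of the histotroph on which an embryo lives before it attaches. Sodium-coupled carriers such as SLC5A1 can move a substrate against its gradient, facilitative carriers such as SLC2A1 let it run down its gradient, and exchangers swap one solute for another. In cattle, day 7 and day 14 both lie in the luteal phase, under progesterone, and the composition of uterine fluid is known to change over it.

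Correlations across probe sets were 0.921 to 0.988 between arrays of a group. Epithelial markers, 13 of 16 measured, had a mean log2 level of 11 ± 0.043 in NPd7 against 11.17 ± 0.18 in NPd14, and of 11.03 ± 0.022 in CDd7 against 11.31 ± 0.14 in CDd14 (SD, n = 3 pools each). Of 10 genes that mark the uterus, 4 were measured. HOXA9 was 8.83-fold lower in CD at day 7 (-3.14 ± 0.61, adjusted p = 0.0336) and 7.06-fold lower at day 14 (-2.82 ± 0.61, adjusted p = 0.291). SERPINA14, a uterine secretory protein, rose 41.5-fold between days in CD (5.37 ± 1.33, adjusted p = 0.0187), MSX1 fell by 0.41 ± 0.11 there (adjusted p = 0.0222) and OXTR passed in no comparison. The mean level of 11 measured stromal markers of 16 ranged over the pools from 8.54 to 9.90 in NPd7, from 5.66 to 7.01 in CDd7, from 6.76 to 8.40 in NPd14 and from 6.34 to 7.25 in CDd14. The difference between 3' and 5' probe sets of control transcripts, a sign of RNA quality, lay between 1.73 and 2.11 in NPd7, between 1.42 and 1.79 in CDd7, between 2.12 and 2.42 in NPd14 and between 1.84 and 2.05 in CDd14 (log2). In biopsies of mixed tissue, fewer cells of a type and less RNA per cell cannot be told apart.

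Between day 7 and day 14 in the heifers that later calved, 20 of the 53 carriers changed at an adjusted p under 0.05 (limma with Benjamini-Hochberg adjustment over all probe sets), against 24.1% of all 6781 genes. The 9 that rose, against 9.87% of all genes, included the glucose carrier SLC5A1, the lactate carrier SLC16A1, the riboflavin carrier SLC52A3 and the carnitine carrier SLC22A5. The 11 that fell, against 14.2% of all genes, included the imino acid carrier SLC6A20, the creatine carrier SLC6A8, the copper carriers SLC31A1 and SLC31A2 and the sugar phosphate exchanger SLC37A1. The groups did not overlap for 29 carriers, against 44.9% of all genes, of which 15 were higher at day 14 (22.1% of all genes) and 14 lower (22.8%). The median difference was -0.04 over the 53 carriers and -0.00 over all genes, and the median size of the difference was 0.74 over the carriers and 0.35 over all genes. These shares were not tested against each other. In the same comparison 2 of 13 epithelial markers, 2 of 9 T and NK cell markers and 1 of 11 stromal markers rose, and the 1 endothelial marker measured, CLDN5, fell; their part in the carriers' changes was not tested.

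The count of called carriers changed with the pools in the fit. For this and all refits below, no share of all genes is given, so their counts cannot be read as particular to the carriers. The count was 20 with all pools. It was 8 without CDd7 pool 2, 10 without CDd14 pool 3, 13 without CDd7 pool 1 and 13 without CDd14 pool 1. In all 12 fits that left out 1 pool, 8 genes kept their calls: SLC22A5 and SLC52A3 among those that rose, and SLC31A2, SLC37A1, SLC4A2, SLC4A7, SLC6A20 and SLC6A8 among those that fell. SLC52A3 was above the filter in CDd14 alone, and SLC16A1 on day 14 arrays alone. The filter therefore kept both through the groups in which they were high, and their calls are no support for the others. With that 3'-5' difference of each array as a model term, 3 carriers were called, SLC52A3 up and SLC37A1 and SLC17A5 down. In that fit all 20 differences had the same sign, with sizes of 0.597 (SLC6A14) to 1.44 times (SLC44A4) those reported and a median of 0.905 times. For example, SLC16A1 differed by 5.22 (adjusted p = 0.111), SLC6A20 by -4.19 (0.0773) and SLC31A2 by -2.22 (0.126). The 3'-5' differences did not overlap between CDd7 (1.42 to 1.79) and CDd14 (1.84 to 2.05), nor between the days in NP. Day and RNA quality therefore cannot be told apart, and the kept signs do not settle the question.

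Between the same days in the heifers without pregnancy, limma called 0 of the 53 carriers, against 0.133% of all genes (0.0590% higher and 0.0737% lower). At an unadjusted p under 0.05 there were 5 carriers, a cutoff for which no share of all genes is given. The groups did not overlap for 4 carriers, against 22.6% of all genes; 3 were higher at day 14, against 7.33%, and 1 lower, against 15.3%. Of the 20 carriers called in CD, 19 had a difference of the same sign in NP, against 88.4% of the 1633 genes called in CD. All 20 were further apart in CD, as were 97.4% of those 1633 genes. Picking genes by their CD difference makes this nearly certain in advance, so it does not show a stronger day effect in CD. The NP pools of the same number were taken as pairs because they deviated together in these same data (r = 0.16, 0.62 and 0.51). The labels do not give such pairs. In them 14 of the 20 (8 of the 9 that rose and 6 of the 11 that fell) had the sign of CD in all 3 pairs, against 63.4% of the 1633 genes. Pools of CDd7 and NPd7, of different outcome, also reached r of 0.36 and 0.27, so the pairing is uncertain and the count is a description. An overlap of the NP days below is an overlap of unpaired pools. Over the 53 carriers the day effects of CD and NP, which share no array, had a Pearson r of 0.856, and over all genes r was 0.654. Genes are not independent replicates and these are descriptions. The test of the difference between the day effects called 0 carriers, against 0% of all genes. It had 8 carriers at an unadjusted p under 0.05, again without a share of all genes. The smallest adjusted p of a carrier in that test was 0.192, for SLC52A3. The next were SLC4A7 (-1.03 ± 0.34, adjusted p = 0.290), SLC4A2 (-0.62 ± 0.22, 0.301), SLC22A5 (0.81 ± 0.30, 0.309) and SLC6A8 (-1.03 ± 0.39, 0.311).

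**Figure D1:**
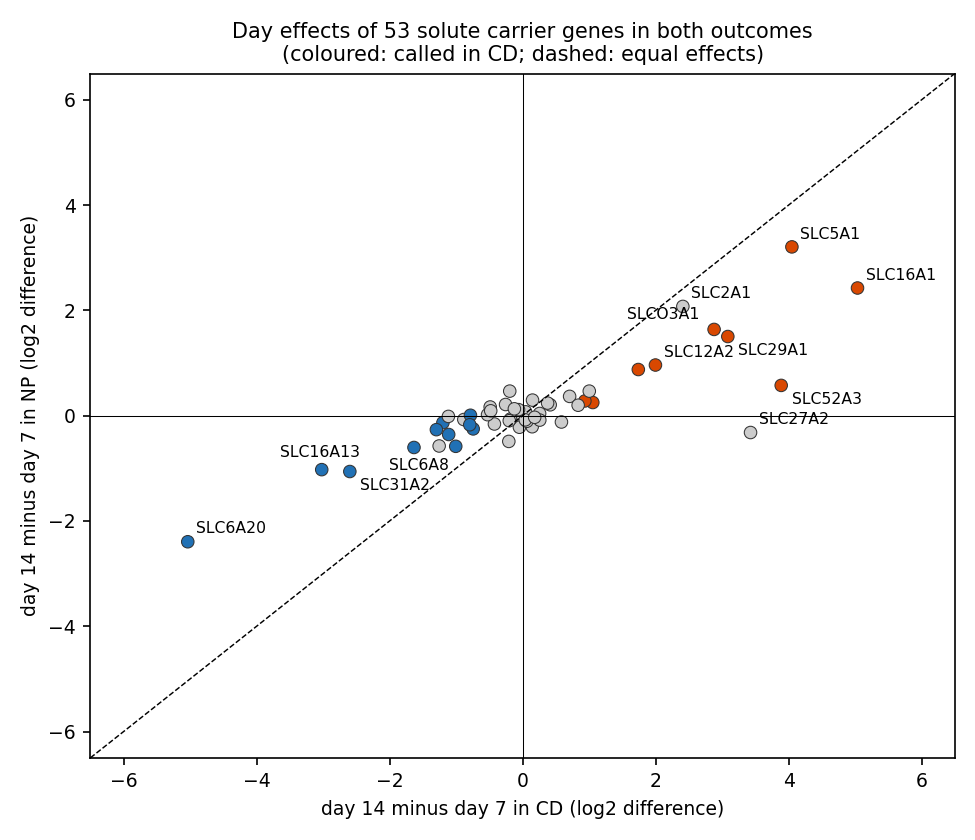
Each point is 1 of the 53 carriers, with its day 14 minus day 7 difference (log2) in CD on the horizontal axis and in NP on the vertical axis. Orange and blue points rose or fell past the threshold in CD, grey points did not pass it, and the dashed line marks equal effects. The 4 points with the widest differences in CD, SLC16A1, SLC6A20, SLC5A1 and SLC52A3, lie between that line and the horizontal axis, and SLC27A2 lies on the other side of the axis, with 3.43 in CD and -0.32 in NP.

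At day 7, 2 of the 53 carriers differed between outcomes, against 3.48% of all genes. Both were higher in the heifers that later calved, against 1.46% of all genes. These were the anion exchanger SLC4A2 and SLC10A3, a member of the bile acid carrier family. None was called lower, against 2.02% of all genes. The groups did not overlap for 14 carriers, against 35.3% of all genes. The 3 CDd7 pools lay entirely above the 3 NPd7 pools for 10 carriers, against 16.7% of all genes, and entirely below them for 4, against 18.6%. Fits without NPd7 pool 1, NPd7 pool 3, CDd7 pool 1, CDd7 pool 2, NPd14 pool 1, CDd14 pool 1 or CDd14 pool 3 called 0, the fit without CDd14 pool 2 called 1, the fit without NPd14 pool 2 called 4 and the fit without NPd7 pool 2 called 8. At this day all 11 measured stromal markers had lower means in CD and 8 were called lower. Of the 9 T and NK cell markers, all were lower and 3 were called, and 1 of 2 red cell markers was called lower. The 1 smooth muscle marker measured, MYLK, was called lower (-3.23), and CLDN5, the 1 endothelial marker, was called higher (2.37). Their part in the carriers' differences was not tested. Adding the stromal marker mean or the 3'-5' difference to the model left 0 carriers called, with 3 and 7 at an unadjusted p under 0.05. The stromal means did not overlap between NPd7 (8.54 to 9.90) and CDd7 (5.66 to 7.01), so that fit cannot tell outcome and stromal content apart. No share of all genes is given for the fits with an added term or without 1 pool, nor at the unadjusted cutoff.

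At day 14, limma called 0 of the 53 carriers between CD and NP, against 0.0147% of all genes. At an unadjusted p under 0.05 there were 9 carriers, a cutoff for which no share of all genes is given. The CDd14 pools lay entirely above the NPd14 pools for 6 carriers, against 4.85% of all genes, and entirely below them for 5, against 5.72%. The median size of the difference was 0.31 over the carriers and 0.15 over all genes. Without CDd14 pool 1 the count was 1, SLC52A3.

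**Figure D2:**
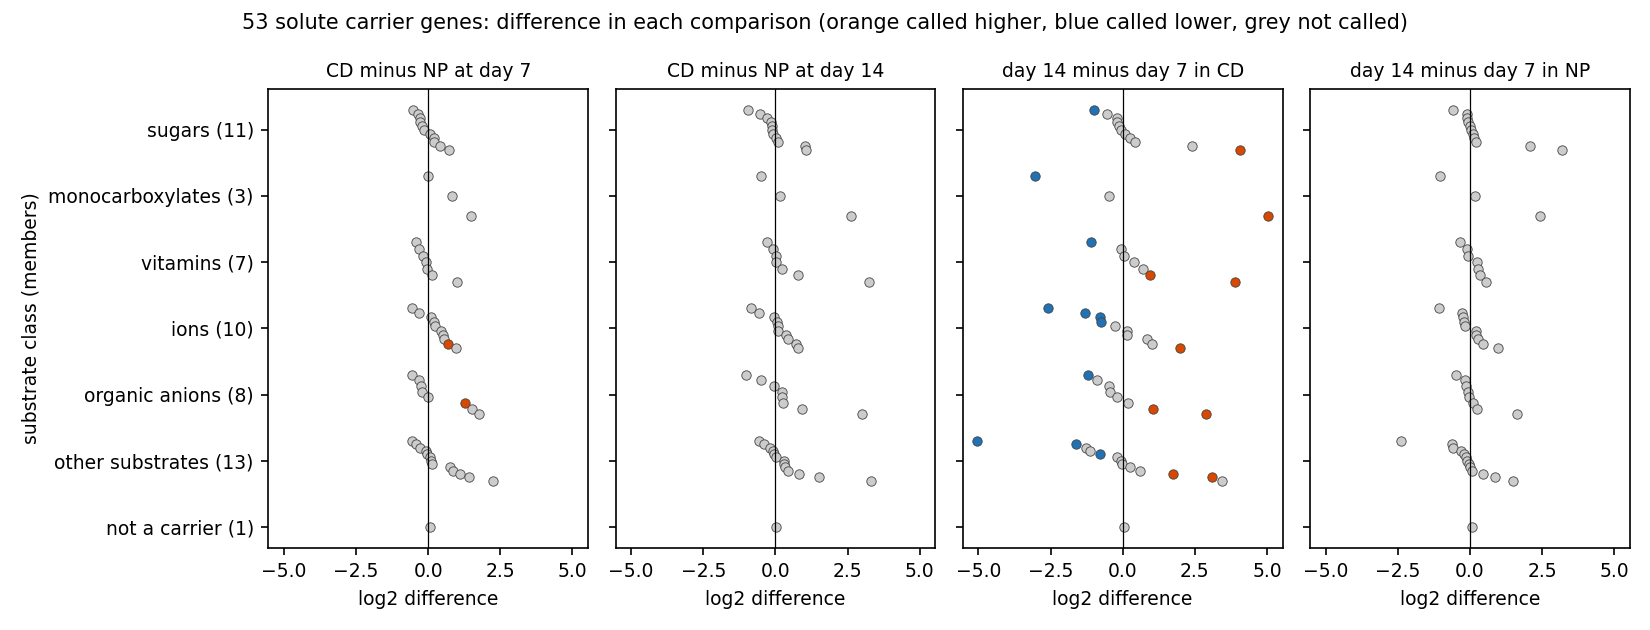
Differences between groups (log2) of the 53 genes, set out by substrate class, with 1 point per gene and 1 panel per pairwise comparison; coloured points passed the threshold. The coloured points lie mostly in the panel of day 14 minus day 7 in CD, where the differences run from -5.04 for SLC6A20 to 5.04 for SLC16A1.

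Among the sugar carriers 1 of 11 rose (against 9.87% of all genes) and 1 fell (against 14.2%) between days in CD, and the other 9 did not pass the test. Their median difference was -0.06. SLC5A1 encodes SGLT1, the sodium-driven glucose carrier of apical epithelial membranes. Its log2 value was 7.41, 9.27 and 7.27 in the NPd7 pools, 7.54, 7.86 and 9.14 in CDd7, 12.02, 12.95 and 8.61 in NPd14 and 12.98, 11.26 and 12.45 in CDd14. All CDd14 pools lay above all CDd7 pools, while pool 3 of NPd14 stayed within the range of NPd7. SLC5A1 rose 16.6-fold between days in CD (4.05 ± 1.03 on the log2 scale, SE; adjusted p = 0.0204), and the difference in NP was 3.21 ± 1.03 (adjusted p = 0.187). The CD call was lost without CDd7 pool 1 (adjusted p = 0.0608), CDd7 pool 2 (0.0738), CDd14 pool 1 (0.0611) or CDd14 pool 3 (0.0627), and the NP difference was called without NPd14 pool 3 (4.5, adjusted p = 0.0299). A second, dimmer probe set of SLC5A1 differed by 2.28 ± 0.92 between days in CD and did not pass (adjusted p = 0.0946).

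SLC2A1 encodes GLUT1, the facilitative glucose carrier found on most cells. It had log2 values of 8.28, 9.06 and 8.41 in NPd7, 9.16, 9.74 and 8.98 in CDd7, 11.08, 12.34 and 8.55 in NPd14 and 12.74, 10.65 and 11.73 in CDd14. As with SLC5A1, pool 3 of NPd14 lay with the day 7 pools and all CDd14 pools lay above CDd7. The difference between days was 2.41 ± 0.83 in CD (adjusted p = 0.0583) and 2.08 ± 0.83 in NP (adjusted p = 0.262), so neither passed. Without NPd14 pool 3 the NP difference was 3.13 (adjusted p = 0.0434). The difference between the outcomes at day 14 was 1.04 ± 1.03 for SLC5A1 and 1.05 ± 0.83 for SLC2A1, and neither passed (adjusted p = 0.892 and 0.857).

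SLC37A1 encodes a phosphate-linked exchanger of glucose 6-phosphate in the endoplasmic reticulum membrane. Its log2 values were 10.50, 10.49 and 10.17 in NPd7, 9.78, 10.03 and 9.81 in CDd7, 9.85, 9.91 and 9.65 in NPd14 and 8.85, 8.78 and 8.98 in CDd14. Both day 14 groups lay below the day 7 group of the same outcome, and both CD groups lay below the NP group of the same day, without overlap. It fell 2.01-fold between days in CD (-1.01 ± 0.13, adjusted p = 0.00256). The other 3 differences did not pass: -0.58 ± 0.13 between days in NP (adjusted p = 0.105), -0.51 ± 0.13 between outcomes at day 7 (adjusted p = 0.0570) and -0.93 ± 0.13 between outcomes at day 14 (adjusted p = 0.0771). Among the 53 carriers, 2 had groups without overlap in all 4 pairwise comparisons, SLC37A1 and SLCO3A1, as did 66 of the 6781 genes (0.973%); these comparisons share groups.

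The other 8 sugar carriers passed in no comparison. SLC2A8, an intracellular hexose carrier, had group means of 5.62 to 5.90, and SLC5A10, a sodium-dependent mannose and fructose carrier, of 7.97 to 8.09. The 5 members of the SLC35A family carry nucleotide sugars into the Golgi for glycosylation or resemble such carriers. SLC35A1, the CMP-sialic acid carrier, had group means of 13.36 to 13.75. SLC35A3, a UDP-N-acetylglucosamine carrier, read 9.37, 9.40 and 9.35 in CDd7 and 9.90, 9.85 and 9.62 in CDd14, without overlap, and the difference of 0.42 ± 0.14 did not pass (adjusted p = 0.0521). SLC35A2, the UDP-galactose carrier, differed by -0.53 ± 0.22 between days in CD (adjusted p = 0.0996). SLC5A9, a sodium-dependent hexose carrier, lay in CDd14 below NPd14 without overlap (-0.53 ± 0.30, adjusted p = 0.763). SLC2A3, encoding the glucose carrier GLUT3, did not pass the filter on low values.

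Of the 3 monocarboxylate carriers, between days in CD 1 rose (against 9.87% of all genes), 1 fell (against 14.2%) and 1 did not pass. SLC16A1 encodes MCT1, a proton-coupled carrier of lactate, pyruvate and ketone bodies. Its log2 value was 2.57, 2.57 and 2.5 in NPd7 and 2.56, 2.53 and 2.54 in CDd7, below the filter on all 6 arrays. At day 14 it was 5.30, 7.08 and 2.54 in NPd14 and 9.46, 4.90 and 8.39 in CDd14. All CDd14 pools and 2 of the 3 NPd14 pools therefore lay above every day 7 pool. The filter kept this gene through day 14 arrays alone, the day on which it was high. SLC16A1 rose by 5.04 ± 1.2 on the log2 scale in CD (32.8-fold, adjusted p = 0.0164), a size that depends on the level at which GCRMA sets dim probe sets. The difference in NP was 2.43 ± 1.2 (adjusted p = 0.348). The CD call was lost without CDd7 pool 2 (adjusted p = 0.0561), CDd14 pool 1 (0.0510) or CDd14 pool 3 (0.0583).

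SLC16A13 belongs to the same family. It had log2 values of 8.26, 10.08 and 8.06 in NPd7, 10.54, 10.81 and 9.51 in CDd7, 7.61, 9.36 and 6.37 in NPd14 and 7.40, 7.19 and 7.19 in CDd14. The CDd14 pools lay close together and below all CDd7 pools, and the NPd14 pools were spread over 3 log2 units around them. It fell by 3.02 ± 0.73 in CD (8.12-fold, adjusted p = 0.0171), and its second probe set fell by 4.83 (adjusted p = 0.0100). The call of the first was lost without CDd7 pool 2 (adjusted p = 0.0693) or CDd14 pool 3 (0.0526). SLC16A3, encoding the lactate exporter MCT4, had a mean of 8.23 ± 0.42 in NPd7 against 9.05 ± 0.23 in CDd7, and of 8.39 ± 0.38 in NPd14 against 8.56 ± 0.67 in CDd14 (SD, n = 3). The CDd7 pools lay above the NPd7 pools without overlap, and the difference of 0.82 ± 0.34 did not pass (adjusted p = 0.142).

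**Figure D3:**
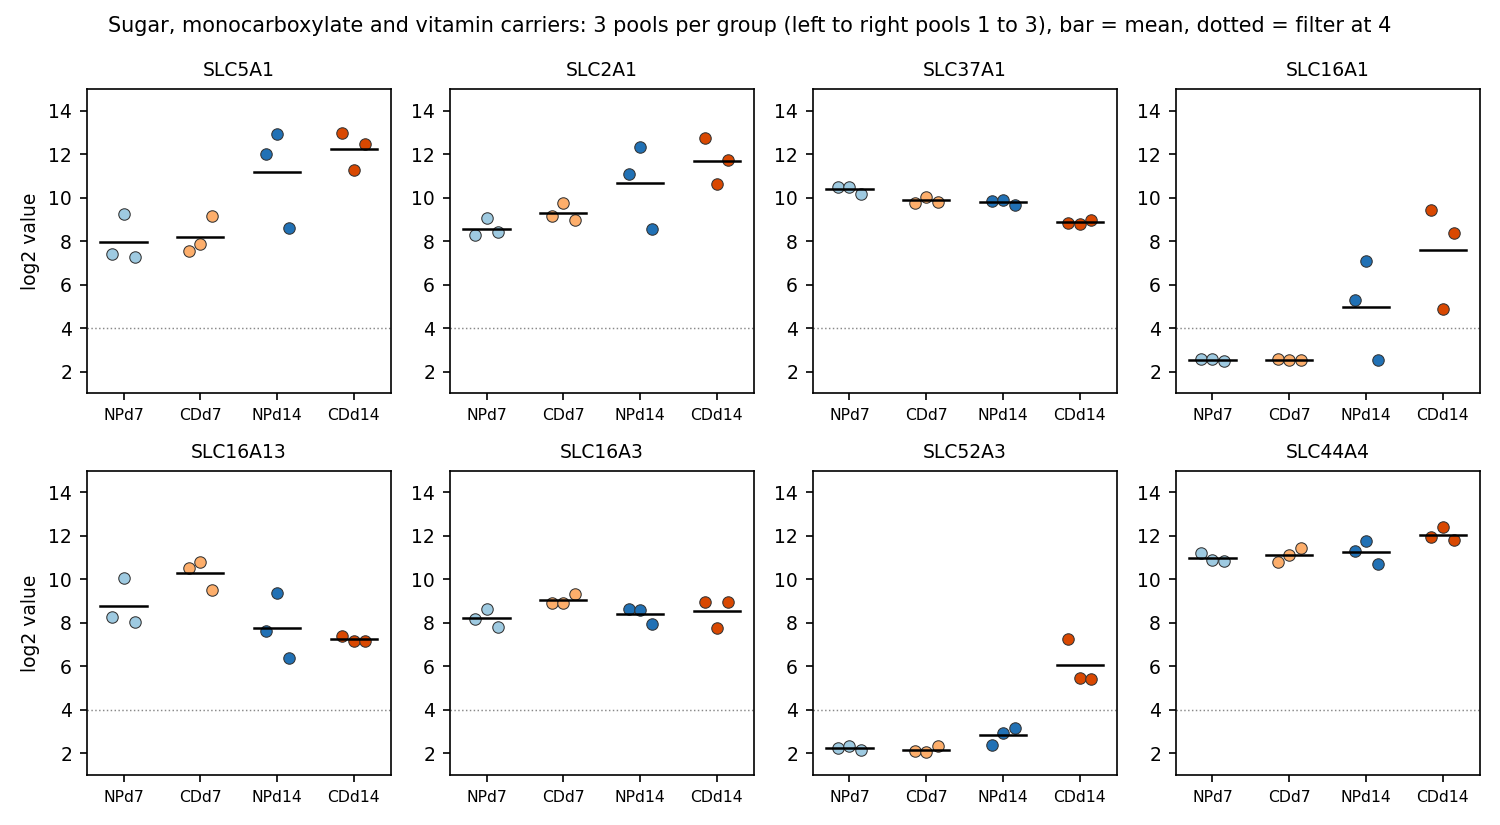
Log2 value on each array of sugar, monocarboxylate and vitamin carriers, with the pools of a group from left to right in the order 1 to 3, the group mean as a bar and the filter at 4 as a dotted line. SLC16A1 and SLC52A3 lie under the dotted line on every day 7 array, and pool 3 of NPd14 is the lowest day 14 point of SLC5A1, SLC2A1 and SLC16A1.

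Among the 7 vitamin and choline carriers 2 rose (against 9.87% of all genes), 1 fell (against 14.2%) and 4 did not pass between days in CD. SLC52A3 encodes RFVT3, which takes up riboflavin at the apical membrane of epithelia. Its log2 value was 2.25, 2.34 and 2.18 in NPd7, 2.11, 2.09 and 2.33 in CDd7, 2.37, 2.94 and 3.19 in NPd14 and 7.29, 5.47 and 5.44 in CDd14. CDd14 was the only group above the filter of 4, so the filter kept this gene through the group in which it was high. It rose by 3.89 ± 0.42 between days in CD (14.8-fold, adjusted p = 0.00176), the smallest adjusted p of the 53 carriers in that comparison; the fold starts from a dim level. The NPd14 pools lay just above the NPd7 pools without overlap, with a difference of 0.58 ± 0.42 (adjusted p = 0.531). The day effects differed by 3.31 ± 0.60 between CD and NP, which did not pass (adjusted p = 0.192). The difference between outcomes at day 14 was 3.24 (adjusted p = 0.0558), and without CDd14 pool 1 it was 2.63 (adjusted p = 0.00790).

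SLC52A2, the second riboflavin carrier measured, stayed between group means of 8.67 and 8.86. SLC44A4, a choline carrier-like protein known to take up thiamine pyrophosphate, had log2 values of 10.81, 11.11 and 11.45 in CDd7 and 11.98, 12.39 and 11.82 in CDd14. The pools did not overlap, and it rose by 0.94 ± 0.27 (1.91-fold, adjusted p = 0.0324). That call was lost without any 1 of the 6 CD pools other than CDd7 pool 3, with adjusted p of 0.0542 to 0.102. In NP its values were 11.24, 10.89 and 10.83 at day 7 and 11.32, 11.76 and 10.73 at day 14, which overlap.

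SLC44A2, a choline carrier-like protein, was the 1 called gene whose groups overlapped. It had log2 values of 9.53, 9.50 and 8.54 in CDd7 and 8.74, 7.45 and 8.04 in CDd14, a fall of 1.11 ± 0.35 (adjusted p = 0.0456). The call held in 3 of the 12 fits that left out a pool, and the adjusted p reached 0.155 without CDd7 pool 2. Of the folate carriers, SLC46A1, the proton-coupled folate carrier, read 6.22, 5.88 and 6.12 in CDd7 and 6.86, 7.06 and 6.41 in CDd14, and the difference of 0.71 ± 0.26 did not pass (adjusted p = 0.0728). SLC19A1, the reduced folate carrier, lay just above the filter at 4.33 to 4.49 on all 12 arrays. SLC5A6, the carrier of biotin and pantothenate, fell just outside the filter, with 4.19 and 4.46 in CDd7 pools 1 and 2 and 2.63 in CDd7 pool 3.

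Among the 10 ion carriers 1 rose (against 9.87% of all genes) and 4 fell (against 14.2%) between days in CD, and 5 did not pass. The 1 that rose, SLC12A2, encodes NKCC1, the sodium-potassium-chloride cotransporter that loads secretory epithelia with chloride. Its log2 values were 7.12, 6.91 and 6.29 in NPd7, 6.94, 6.21 and 6.17 in CDd7, 7.74, 8.63 and 6.85 in NPd14 and 9.13, 7.98 and 8.22 in CDd14. The CD days did not overlap and the NP days did. SLC12A2 rose 4.0-fold in CD (2.0 ± 0.46, adjusted p = 0.0139), its second probe set rose by 1.59 (adjusted p = 0.00703), and the NP difference was 0.96 ± 0.46 (adjusted p = 0.330). Without CDd7 pool 2 its adjusted p was 0.0565.

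SLC4A2 and SLC4A7 move bicarbonate. SLC4A2 encodes the chloride-bicarbonate exchanger AE2 and had log2 values of 8.63, 9.04 and 8.78 in NPd7, 9.46, 9.69 and 9.38 in CDd7, 8.68, 8.65 and 8.60 in NPd14 and 8.62, 8.99 and 8.54 in CDd14. CDd7 stood above the other 3 groups, which overlapped each other. The difference between outcomes at day 7 was 0.70 ± 0.15 (1.62-fold, adjusted p = 0.0428), and the fall between days in CD was 0.79 ± 0.15 (adjusted p = 0.00757); both use the CDd7 arrays. The day 7 call was lost in 7 of the 12 fits without 1 pool, with the highest adjusted p, 0.174, without NPd7 pool 3. SLC4A7, which encodes the sodium-bicarbonate cotransporter NBCn1, read 11.18, 11.62 and 10.99 in CDd7, 10.84, 10.28 and 11.27 in NPd14 and 9.87, 9.91 and 10.13 in CDd14. CDd14 lay below every other array, and SLC4A7 fell by 1.30 ± 0.24 between days in CD (2.46-fold, adjusted p = 0.00645), while the difference from NPd14 of -0.83 ± 0.24 did not pass (adjusted p = 0.431). SLC4A4, another sodium-bicarbonate cotransporter, had group means of 6.89 to 7.72 and passed in no comparison.

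Both copper carriers fell in CD. SLC31A2, known for a role in copper release from endosomes and lysosomes, had log2 values of 11.45, 12.62 and 10.96 in NPd7, 12.89, 12.71 and 12.30 in CDd7, 10.71, 11.67 and 9.46 in NPd14 and 10.64, 9.64 and 9.81 in CDd14. It fell by 2.60 ± 0.56 (6.06-fold, adjusted p = 0.0111). SLC31A1, encoding the copper uptake carrier CTR1, fell from 12.40, 12.75 and 12.54 to 11.84, 11.71 and 11.92, by 0.74 ± 0.20 (1.67-fold, adjusted p = 0.0255). Its call was lost without CDd7 pool 2 (adjusted p = 0.0975) and without any of the CDd14 pools (0.0576 to 0.0743). In neither gene did the NP difference pass (adjusted p = 0.377 and 0.566). SLC11A2, which encodes the iron carrier DMT1, had group means of 12.17 to 12.84, and SLC20A1, a sodium-phosphate cotransporter, of 8.59 to 9.13, and neither passed in any comparison.

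**Figure D4:**
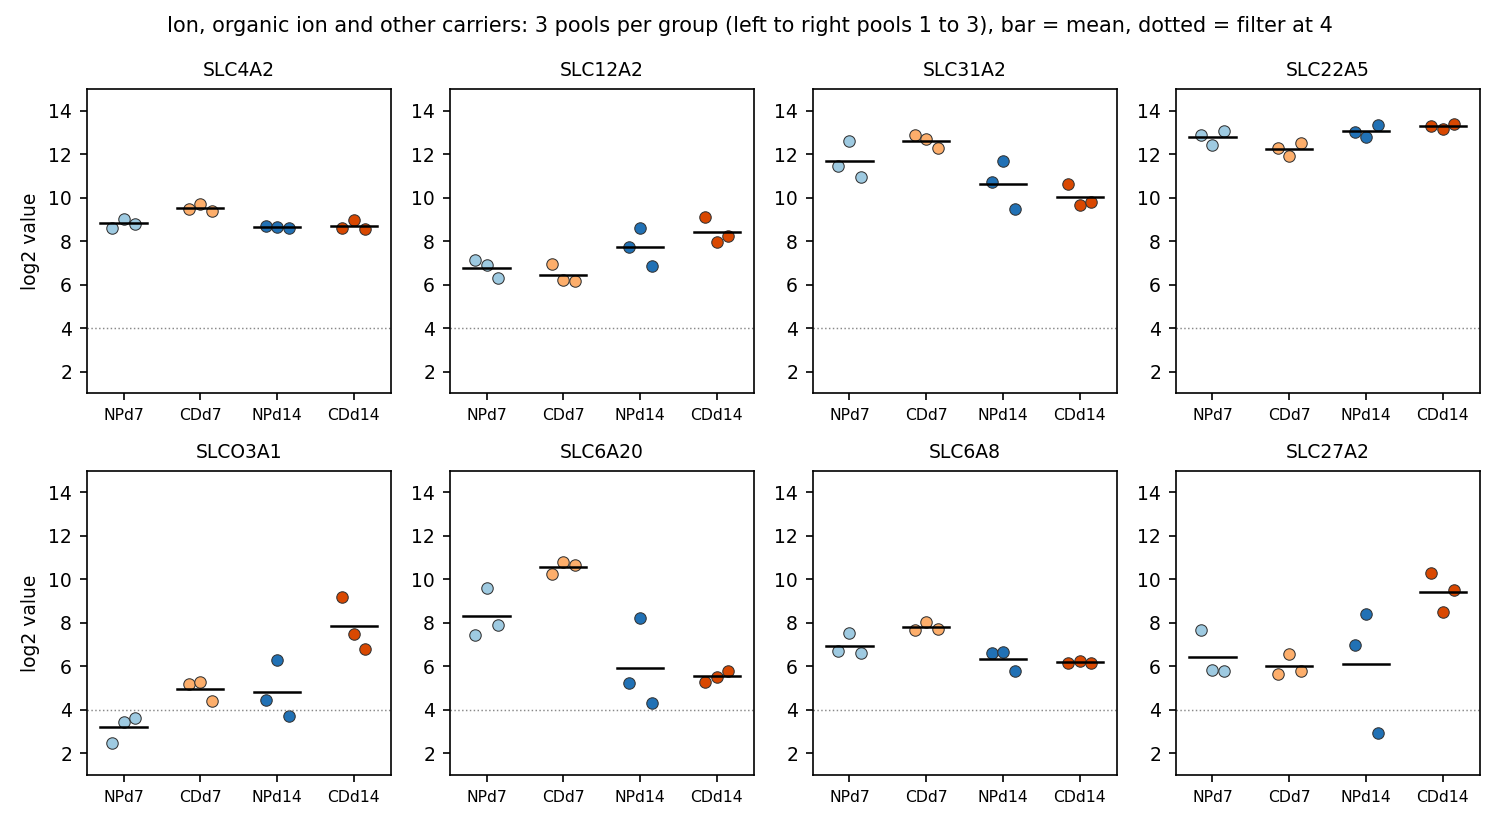
Log2 value on each array of ion, organic ion and other carriers, with the pools from left to right in the order 1 to 3, the group mean as a bar and the filter at 4 as a dotted line. SLC4A2 stands above the other groups in CDd7, SLC6A20 runs from 10.26 to 10.78 in CDd7 and from 5.28 to 5.81 in CDd14, and SLCO3A1 is highest in CDd14.

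Among the 8 genes of organic ion families 2 rose (against 9.87% of all genes), 1 fell (against 14.2%) and 5 did not pass between days in CD. SLC22A5 encodes OCTN2, the sodium-dependent carnitine carrier. It read, on the log2 scale, 12.90, 12.43 and 13.05 in NPd7, 12.30, 11.91 and 12.51 in CDd7, 13.01, 12.80 and 13.33 in NPd14 and 13.32, 13.17 and 13.40 in CDd14. CDd7 was the lowest group by its mean, and it did not overlap with CDd14. SLC22A5 rose 2.08-fold in CD (1.06 ± 0.21, adjusted p = 0.00839), its second probe set rose by 1.17 (adjusted p = 0.0224), and the NP difference was 0.25 ± 0.21 (adjusted p = 0.589).

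SLCO3A1 encodes an organic anion transporting polypeptide that accepts prostaglandins. It had log2 values of 2.5, 3.45 and 3.64 in NPd7, 5.20, 5.28 and 4.39 in CDd7, 4.47, 6.31 and 3.72 in NPd14 and 9.20, 7.49 and 6.82 in CDd14. Day 14 lay above day 7 in both outcomes and CD above NP on both days, without overlap. It rose by 2.88 ± 0.72 in CD (7.36-fold, adjusted p = 0.0195). The other 3 differences did not pass: 1.64 ± 0.72 between days in NP (adjusted p = 0.30), 1.76 ± 0.72 between outcomes at day 7 (0.138) and 3.0 ± 0.72 between outcomes at day 14 (0.358). The CD call was lost without CDd7 pool 2 (adjusted p = 0.0533) or CDd14 pool 1 (0.0560).

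SLC10A3 resembles the bile acid carriers. On the log2 scale it read 5.32, 6.05 and 5.51 in NPd7, 7.13, 7.18 and 6.43 in CDd7, 5.38, 5.99 and 5.11 in NPd14 and 5.99, 5.61 and 5.55 in CDd14. As with SLC4A2, CDd7 stood above the other groups. SLC10A3 was higher in CD at day 7 by 1.29 ± 0.29 (2.44-fold, adjusted p = 0.0447) and fell between days in CD by 1.2 ± 0.29 (2.29-fold, adjusted p = 0.0170). The day 7 call held in 4 of the 12 fits without 1 pool, with the highest adjusted p, 0.181, without NPd7 pool 3, and the call between days was lost without CDd7 pool 1 (0.0529), CDd7 pool 2 (0.0709) or CDd14 pool 3 (0.0595).

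SLC17A5, the lysosomal sialic acid carrier sialin, lay at 12.46, 12.15 and 12.48 in CDd7 and 11.94, 11.87 and 12 in CDd14, a difference of -0.42 ± 0.17 that did not pass (adjusted p = 0.0979). SLCO4C1 passed the filter through 3 arrays, CDd7 pools 1 and 2 (5.40 and 4.06) and CDd14 pool 1 (5.59). SLCO1A2 lay at 4.31 to 4.72 on all 12 arrays.

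Among the 13 carriers of other substrates 2 rose (against 9.87% of all genes), 3 fell (against 14.2%) and 8 did not pass between days in CD. SLC6A20 encodes a sodium-dependent carrier of proline and other imino acids. Its log2 values were 7.46, 9.59 and 7.91 in NPd7, 10.26, 10.78 and 10.68 in CDd7, 5.25, 8.21 and 4.30 in NPd14 and 5.28, 5.52 and 5.81 in CDd14. Every CDd7 pool lay above every other array. SLC6A20 fell 32.8-fold between days in CD (-5.04 ± 0.86, adjusted p = 0.00492), and the difference in NP was -2.39 ± 0.86 (adjusted p = 0.222). Without NPd14 pool 2 the NP difference was -3.54 and was called (adjusted p = 0.0261). The difference between outcomes at day 7 of 2.26 ± 0.86 did not pass (adjusted p = 0.120).

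SLC6A8 encodes the creatine carrier. It had log2 values of 6.73, 7.52 and 6.63 in NPd7, 7.70, 8.02 and 7.73 in CDd7, 6.62, 6.68 and 5.77 in NPd14 and 6.15, 6.24 and 6.17 in CDd14. CDd7 lay above the other 3 groups without overlap. It fell by 1.63 ± 0.28 between days in CD (3.10-fold, adjusted p = 0.00485), and its second probe set fell by 1.83 (adjusted p = 0.00425). At day 7 the probe sets gave different calls for CD against NP: 0.86 ± 0.28 on the brighter (adjusted p = 0.0839) and 1.55 ± 0.30 on the dimmer (adjusted p = 0.0332). Without NPd7 pool 2 the brighter probe set was called too (1.14, adjusted p = 0.0276).

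SLC6A14 encodes a broad carrier of neutral and cationic amino acids driven by sodium and chloride. In CD its values were 9.72, 9.33 and 10.37 in CDd7 and 11.42, 11.91 and 11.31 in CDd14, a rise of 1.74 ± 0.48 (3.34-fold, adjusted p = 0.0266). In NP they were 10.06, 9.83 and 11.18 at day 7 and 11.17, 10.39 and 12.14 at day 14, which overlap. Pools of the same number were higher at day 14 by 1.12, 0.56 and 0.95. That pairing is uncertain, as it came from these data and not from the labels. Most of the genes that rose in CD had the same sign in it. The call in CD was lost without any 1 of the CD pools other than CDd7 pool 3 (adjusted p = 0.0550 to 0.102).

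Of the nucleoside carriers, SLC29A1 encodes ENT1, which lets adenosine and other nucleosides run down their gradient. It had log2 values of 3.79, 4.88 and 4.43 in NPd7, 2.75, 4.85 and 5.25 in CDd7, 5.04, 7.54 and 5.04 in NPd14 and 8.72, 5.28 and 8.12 in CDd14. Day 14 lay above day 7 in both outcomes, although CDd14 pool 2 exceeded CDd7 pool 3 by under 0.1. It rose by 3.09 ± 1.0 in CD (8.5-fold, adjusted p = 0.0481), a call that held in 4 of 12 fits without 1 pool and was lost without CDd7 pool 1 (adjusted p = 0.145). SLC28A3, the concentrative nucleoside carrier CNT3, had group means of 11.50 to 11.82 and passed in no comparison.

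SLC27A2, a fatty acid transport protein with very long-chain acyl-CoA synthetase activity, had the widest spread within a group. Its log2 values were 7.68, 5.82 and 5.80 in NPd7, 5.66, 6.55 and 5.81 in CDd7, 6.98, 8.40 and 2.95 in NPd14 and 10.29, 8.49 and 9.53 in CDd14. Every CDd14 pool lay above all other arrays. The differences of 3.43 ± 1.16 between days in CD (adjusted p = 0.0559) and 3.32 ± 1.16 between outcomes at day 14 (adjusted p = 0.554) did not pass. SLC27A4, of the same family, fell just outside the filter, with 4.41, 4.14 and 3.42 in CDd7.

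SLC33A1, which takes acetyl-CoA into the endoplasmic reticulum, fell from 10.75, 10.36 and 9.87 in CDd7 to 9.59, 9.64 and 9.40 in CDd14, by 0.78 ± 0.25 (adjusted p = 0.0471). It was the 1 called gene whose difference in NP did not have the same sign (0.01 ± 0.25), and its call held in 3 of 12 fits without 1 pool, with the highest adjusted p, 0.141, without CDd7 pool 1. SLC66A3 read 9.94, 10.70 and 9.92 in NPd7 and 11.71, 11.62 and 11.52 in CDd7, and the difference of 1.43 ± 0.40 did not pass (adjusted p = 0.0626). It was called without NPd7 pool 2 (adjusted p = 0.0371), NPd14 pool 2 (0.0359) or NPd14 pool 3 (0.0476). SLC15A1, the intestinal-type peptide carrier PEPT1, lay at 7.02, 7.04 and 6.89 in NPd14 and 8.53, 7.35 and 7.57 in CDd14, and the difference of 0.83 ± 0.27 did not pass (adjusted p = 0.532).

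**Figure D5:**
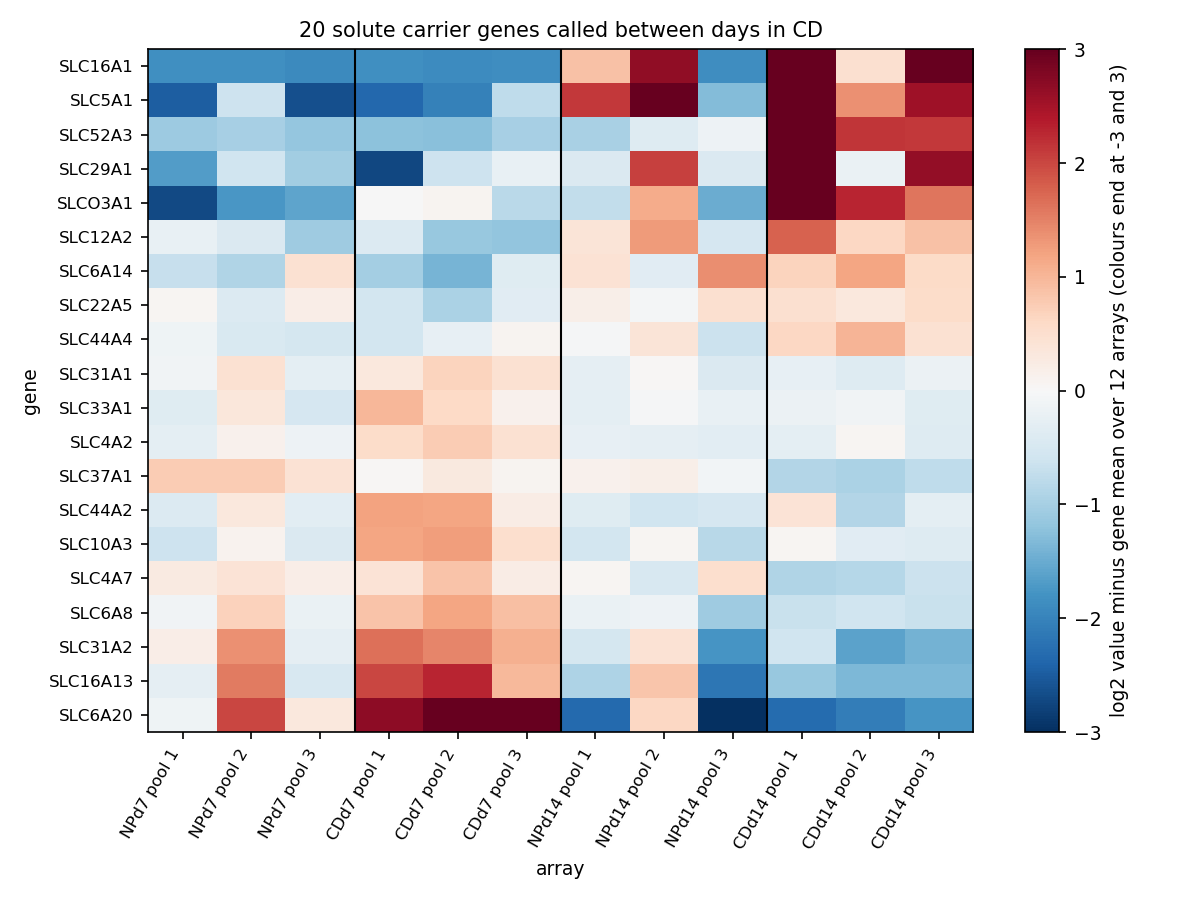
Log2 values of the 20 carriers called between days in CD, each row 1 gene with its mean over the 12 arrays set to 0 and each column 1 array. Most of the 9 genes that rose (upper rows) are below their mean in CDd7 and above it in CDd14, most of the 11 that fell show the reverse, and the NPd14 columns differ among themselves.

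The pools of a group did not stand alike. For the 20 called carriers, pools 1, 2 and 3 of NPd14 lay nearer to the CDd14 mean than to the CDd7 mean for 14, 13 and 11 genes. Of the 9 genes that rose in CD these were 5, 6 and 2, and of the 11 that fell 9, 7 and 9. The same counts were 9, 3 and 11 for the pools of NPd7, with 1, 0 and 2 of the genes that rose and 8, 3 and 9 of those that fell, so pool 3 had the same total on both days. Pool 3 was the lowest NPd14 pool for 6 of the 9 genes that rose and for 8 of the 11 that fell, and pool 2 was the highest for 6 and 8. In CDd14, pool 1 was the highest for 6 of the 9 and pool 2 the lowest for 5. Of all 53 genes, 20 had their highest group mean in CDd14, 19 in CDd7, 9 in NPd7 and 5 in NPd14. Group means lay within 0.3 of each other for 9 genes and over 2 apart for 10.

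Partner proteins and pumps that set the gradients for carriers were measured for 20 of 51 listed genes. Between days in CD 1 rose, 4 fell and 15 did not pass, a share of 25% called against 24.1% of all genes. BSG, the chaperone that brings SLC16A1 and SLC16A3 to the cell surface, fell from 14.04, 14.46 and 13.91 in CDd7 to 13.16, 13.28 and 13.15 in CDd14, by 0.94 ± 0.17 (1.92-fold, adjusted p = 0.00646), in the comparison in which SLC16A1 rose. PDZK1, a scaffold of apical carriers including SLC22A5, fell from 13.78, 13.77 and 13.25 to 8.23, 5.31 and 8.60, by 6.22 ± 1.72 (74.7-fold, adjusted p = 0.0274). Its NPd14 pools read 9.20, 12 and 3.67, so that pool 3 was again the lowest. CA13, a cytosolic carbonic anhydrase, fell by 2.95 ± 0.67 (adjusted p = 0.0132). CA2, another carbonic anhydrase, went the other way, with a difference of 3.32 ± 1.19 that did not pass (adjusted p = 0.0669). Of the vacuolar proton pump subunits, ATP6V0A4 rose by 1.41 ± 0.25 (adjusted p = 0.00557) and ATP6V1B2 fell by 0.62 ± 0.12 (adjusted p = 0.00677); the latter was also higher in CD at day 7 (0.66 ± 0.12, adjusted p = 0.0285).

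Enzymes that use the carried substrates were measured for 26 of 43 listed genes, of which 2 rose, 5 fell and 19 did not pass between days in CD. The share called was 26.9%, against 24.1% of all genes. The lactate dehydrogenase subunits fell, LDHA by 1.42 ± 0.29 (adjusted p = 0.00904) and LDHB by 0.87 ± 0.18 (adjusted p = 0.00909). In creatine metabolism GATM, which makes the precursor of creatine, rose from 11.79, 11.27 and 11.70 to 14.08, 13.17 and 13.59, by 2.03 ± 0.33 (4.08-fold, adjusted p = 0.00429). CKB, the brain-type creatine kinase, fell by 2.95 ± 0.68 (adjusted p = 0.0141), in the comparison in which the creatine carrier SLC6A8 fell. FPGS, which traps folates in the cell, fell by 1.21 ± 0.22 (adjusted p = 0.00668), and CHKB, a choline kinase, by 0.62 ± 0.19 (adjusted p = 0.0384). ADA, the adenosine deaminase, rose by 0.64 ± 0.20 (adjusted p = 0.0422), from 3.69, 3.58 and 3.96 to 4.58, 3.96 and 4.61, near the filter. It was above the filter on day 14 arrays alone, so the filter kept it through the day on which it was higher. At day 7 GALM, which interconverts the anomers of glucose and galactose, was lower in CD by 0.75 ± 0.14 (adjusted p = 0.0326). Between outcomes at day 14 and between days in NP, 0 genes of either list were called.

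The 55 genes that the filter left out included the glucose carriers SLC2A2 and SLC2A4, the taurine carrier SLC6A6, the phosphate carriers SLC34A1 and SLC34A2, and SLCO4A1, all with 0 of 12 arrays above 4. No comparison was made for them. For 5 further genes, SLC8A1, SLC27A5, SLC13A2, SLC2A5 and SLC46A2, 1 array was above 4.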

How the data were processed

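Values are log2, as deposited by the authors. The submitters' processing notes name GCRMA and limma, without versions. GCRMA subtracts background, makes arrays comparable and gives 1 value per probe set; dim probe sets sit near a common floor. Of 24128 probe sets, 112 controls were left out and 13449 of 24016 were kept, with log2 above 4 on at least 3 of 12 arrays. The limma 3.58.1 model in R 4.3.3 had 4 group means (8 residual and 2.13 prior degrees of freedom), and 5 contrasts, with Benjamini-Hochberg adjustment across those 13449 and a two-sided threshold of 0.05. Errors of differences are standard errors. The scripts were tested on simulated data. Symbols came from the platform annotation, and all 53 matched RefSeq. The number of arrays limits the precision.

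The members and gene lists were chosen with earlier results of these data known. Named are, for each pairwise contrast, up to 12 called members in each direction (where under 5 were called, the 5 with the smallest p), 5 for the difference of the day effects, in each class the 2 with the highest level and up to 4 with the smallest p, a list of well-known carriers, and up to 5 called genes of each partner list. For length some uncalled ones are left out. SLC27A2, SLC66A3 and others are also named for near misses, seen in the data.

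Alternatives were another filter or none, quantile normalization, trended and robust moderation, averaging over a gene's kept probe sets, stromal or 3' to 5' scores as covariates, 6 arrays only, each pool left out, and the pool number as a replicate block. Same-numbered pools of NPd7 and NPd14 deviated together (r = 0.16, 0.62 and 0.51), so these numbers were taken as pairs, from the data and not from the labels. In CDd7 and NPd7, whose heifers differ in outcome, r was -0.03, 0.36 and 0.27. In CDd14 and NPd14 it was 0.10, -0.23 and 0.16, and in CDd14 and CDd7 it was 0.24, -0.07 and 0.23. Values above the 0.16 of NP pool 1 therefore also occurred between groups of different outcome, and the pairing in NP is uncertain.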

Additional observations from a re-analysis of the deposited data

How the results depend on the processing

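Over the named carriers and all the alternatives run, 0 differences that were called turned their direction. For the day effect in CD, 20 carriers were called, and 14 to 21 under the other settings except the 3' to 5' covariate, which left 3; leaving out 1 pool gave 8 to 22. For the outcomes at day 7, 2 were called, and 0 without a filter on low values, 0 with the stromal covariate, 0 with the 3' to 5' covariate and 0 with only 6 arrays (16, 3, 7 and 14 at an unadjusted p under 0.05); leaving out 1 pool gave 0 to 8. For the outcomes at day 14 the count of 0 became 1 at most when 1 pool was left out (0 to 1), and for the days in NP 2 at most (0 to 2). The difference of the day effects gave 0 in every fit run. No share of all genes is given for these other fits or at the unadjusted cutoff, so the counts cannot be read as particular to the carriers. The causes were not tested.

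With the pool number as a replicate block over all 12 arrays, 7 carriers were called between outcomes at day 7 (5 up, 2 down). Between days in CD 21 were called (SLC35A2, up at day 7 and down between days, among the added calls). There were 0 between days in NP, 0 between outcomes at day 14 and 0 for the difference. No share of all genes is given for the block fits, so these counts cannot be read as particular to the carriers. Outside NP the numbers were not taken as pairs: of 3 pools, 2 correlated best with their own number for CDd7 and NPd7, 1 for CDd14 and NPd14 and 2 for CDd14 and CDd7, against 3 in NP. In NP, where they were taken as pairs, a block fit on the 6 NP arrays, chosen after seeing the data, called 0 (15 at an unadjusted p under 0.05, smallest adjusted p = 0.129), so the block changed no call there.

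Signals near the filter limit the sizes given for SLC16A1, SLC52A3, SLCO3A1 and SLC29A1.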
